A study of Mus musculus with 30 samples.

Results

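The collagen alpha-chain genes were followed on mouse expression arrays through 72 h of retinoic acid treatment of KH2 embryonic stem cells. Members were chosen by name alone: every probe set annotated with exactly 1 gene symbol of the form Col, a number, a and a number entered, which gave 82 probe sets, and each gene was then represented by its brightest probe set on average across the 30 arrays. This left 42 of the 18193 genes that have a single-symbol probe set. They comprised 11 fibrillar collagens (types I, II, III, V, XI, XXIV and XXVII), 9 network-forming collagens (types IV, VIII and X), 5 chains of the microfibrillar type VI and 17 others.

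KH2 is a mouse embryonic stem cell line, known to carry a tetracycline-controlled activator at Rosa26 and a Flp recombination site placed beside Col1a1, an alteration that all samples share. Cells were grown on feeder cells, whose line the labels do not name, and RNA came from 8 labelled times (8, 12, 16, 24, 36, 48, 60 and 72 h). Each of the 10 groups had 3 arrays, since 12 h and 24 h were each run as arrays lettered A to C and again as arrays lettered D to F, written here as 12 h A-C, 12 h D-F, 24 h A-C and 24 h D-F. The 8 h group carries the treatment label baseline and every other group the label retinoic acid; the labels do not state whether the acid was present at 8 h, and no untreated cells of a later time were analysed here, so treatment and time in culture cannot be told apart. Before lysis the cells were trypsinised and replated on gelatin for a short time. The labels give the lysed material in one place as the cells that adhered and in another as the pellet of the medium drawn off, and they do not state that the 3 arrays of a group came from separate cultures, so p-values measure only the spread between arrays.

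Collagens are triple-helical proteins of the extracellular matrix. Fibrillar collagens assemble into the rope-like fibres of connective tissue, type IV forms the sheet-like network of basement membranes, type VI forms beaded filaments beside cells, and FACIT collagens bind to the surface of fibres. Each molecule is a trimer of alpha chains from 1 to 3 genes, folded in the endoplasmic reticulum with the help of prolyl and lysyl hydroxylases and the chaperone Serpinh1. Retinoic acid is known to drive mouse embryonic stem and embryonal carcinoma cells towards endoderm-like and neural fates, and parietal endoderm is known for its thick basement membrane rich in type IV collagen and laminin.

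The values are log2 intensities that the authors normalised and deposited. The arrays fall into 2 sets by the difference between a pair of hybridisation spike controls, which was 0.99 to 1.07 on the 12 arrays of 8 h, 12 h A-C, 16 h and 24 h A-C and 1.34 to 1.63 on the other 18 arrays. Comparisons over time were therefore made within a set, against 8 h in set 1 and against 12 h D-F in set 2. A gene was called where the adjusted p of a moderated limma test was under 0.05 over all 18193 genes, in 1 fit of all 30 arrays. Values under 4.73, the lowest lower quartile of any array, were treated as too dim to order; Col24a1 and Col6a5 lay under it on every array. The pluripotent stem cell list (Pou5f1, Nanog and 5 others) averaged 10.75 at 72 h and 12.04 at 8 h, so markers of the labelled cell type were present at both ends. At 72 h against 12 h D-F 6 of its 7 genes fell, where 34.5% of all genes fell. These are bulk samples, in which more cells of a type and more RNA per cell cannot be told apart.

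Few collagens were called in the first day. The fit shares 1 spread per gene over all arrays, so a gene with wide late arrays is harder to call early. For Col5a2 the 24 h A-C arrays (8.40 to 8.67) all lay above those of 8 h (7.99 to 8.07), without a call. A fit of only the arrays compared called more members, as given under the processing settings. At 24 h A-C against 8 h, 5 of the 42 members rose and 3 fell, where 23.5% of all genes rose and 15.8% fell. At 72 h against 12 h D-F, 24 members rose and 6 fell, beside 26.2% and 34.5% of all genes, and 14 members rose by at least 1 on the log2 scale, which 6.87% of all genes did. The members' median change in that comparison was 0.44, and that of all genes was -0.09. Over all 45101 probe sets the array medians lay between 6.34 and 6.39. Centring as tried here would take 0.18 from every change at 72 h against 12 h D-F and 0.19 from every change at 24 h A-C against 8 h. Those medians do not show a shift of that size. So centred, the later comparison had 20 members up and 9 down, and the earlier one 4 up and 12 down; quantile normalising the arrays again gave 6 up and 7 down in the earlier one. Its count of 8 calls was 4 without 8 h B and 5 without 24 h B. Over all times, 9 of 42 members differed by the F test in set 1, where 55.5% of all genes did, and 32 of 42 in set 2, where 67.1% did. The set 1 count was 5 without 16 h C and 18 after centring. The shares of all genes after centring, after quantile normalising again or without an array are not given here. Counts under those settings are therefore not read as results about the collagens.

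At 72 h against 12 h D-F, where 26.2% of all genes rose and 34.5% fell, the members were counted by class. Of the fibrillar collagens 10 of 11 rose and none fell at an adjusted p under 0.05, with a median change of 2.28; Col24a1, under 4.73 throughout, is among the 10, and the exception was Col11a2, at -0.04 (95% interval -0.24 to 0.16). Of the network collagens 5 of 9 rose and none fell, with a median of 0.42. Of the type VI chains 2 rose and 2 fell, with a median of 0.74. Of the 17 other collagens 7 rose and 4 fell, with a median of 0.14. No test of one class against another was run.

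In set 2 each time was set against 12 h D-F. At 24 h D-F against 12 h D-F, 6 members rose and 1 fell (16% and 14.8% of all genes), and at 36 h against 12 h D-F 14 rose and 4 fell (23.1% and 21.4%). At 48 h 24 rose and 4 fell (22.4% and 27.2%), and at 60 h 19 rose and 4 fell (23.6% and 33.6%). Whichever single array of the 2 groups was left out, 3 of the 7 calls at 24 h D-F held, 12 of 18 at 36 h, 25 of 28 at 48 h and 20 of 23 at 60 h. The median change of the fibrillar genes against 12 h D-F was 0.29 at 24 h D-F, 1.03 at 36 h, 2.01 at 48 h, 2.10 at 60 h and 2.28 at 72 h. That of the network genes was 0.22, 0.55, 0.46, 0.60 and 0.42 at the same times, and that of the type VI chains was 0.06, 0.42, 1.36, 0.58 and 0.74. The type VI median was thus highest at 48 h, whereas the other collagens had a median between 0.02 and 0.14 at all 5 times.

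**Figure D1:**
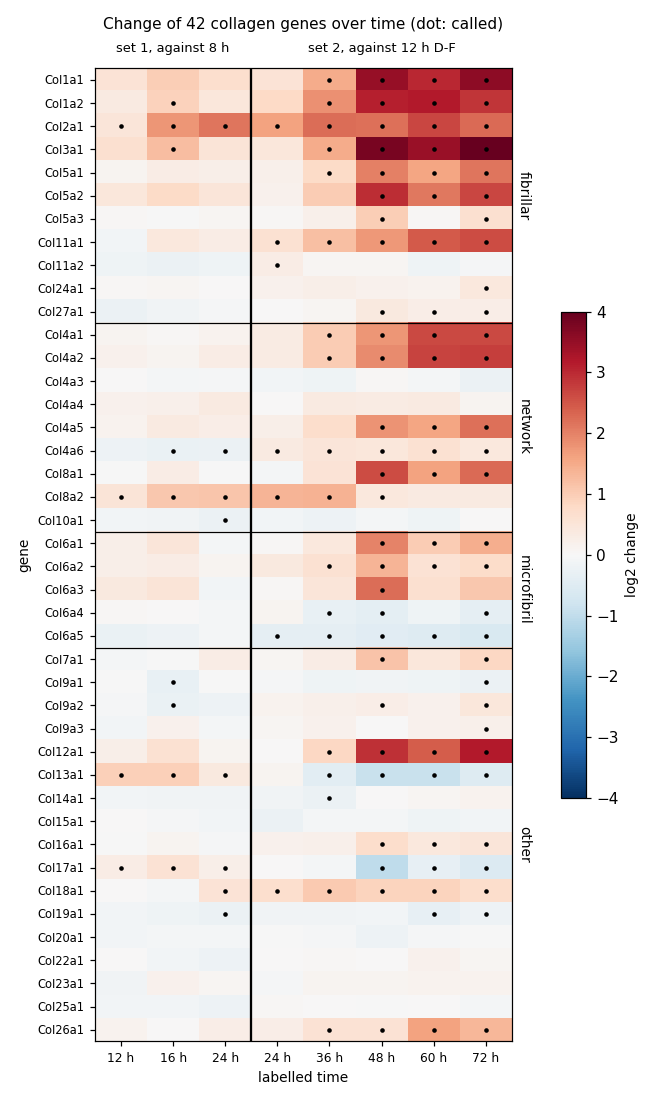
Log2 change of each of the 42 collagen genes (rows, grouped by class) at each time (columns) against the first group of its array set, which is 8 h for set 1 and 12 h D-F for set 2. Red is higher and blue lower than that first group, and a dot marks a call by limma at an adjusted p under 0.05; from 48 h on Col3a1 has the deepest colour, up to 4.04 at 72 h, and Col11a2 stays pale throughout.

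The chains of the interstitial fibres, types I, III and V, rose late and strongly. Col3a1, the single chain of type III collagen, read 13.32, 13.05 and 13.53 on the 72 h arrays and 9.34, 8.81 and 9.64 on the 12 h D-F arrays. All 3 arrays at 72 h lay above all 3 at 12 h D-F, and the difference was 4.04 ± 0.31 (SE; adjusted p = 4.9e-11), or 16.4-fold, the most of any member. Col1a1, the main chain of type I collagen, read 11.98, 11.31 and 12.71 at 72 h and 8.36, 7.73 and 9.15 at 12 h D-F, a difference of 3.59 ± 0.48 (adjusted p = 4.9e-07). Col1a2, which makes up the rest of the type I trimer, read 12.78, 11.74 and 13.05 at 72 h and 9.65, 8.94 and 10.42 at 12 h D-F, 2.86 ± 0.36 higher (adjusted p = 2.5e-07). In both type I genes the groups did not overlap, although the arrays of each group were spread over more than 1 log2 unit, with 72 h C and 12 h F the highest of their groups.

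Type V collagen, which joins type I in fibres and limits their width, moved the same way. Col5a1 read 10.20, 9.79 and 10.44 at 72 h against 7.98, 7.69 and 8.31 at 12 h D-F, a rise of 2.15 ± 0.22 (adjusted p = 4.4e-09). Col5a2 read 11.38, 10.66 and 12.11 at 72 h against 8.69, 8.12 and 9.32 at 12 h D-F, a rise of 2.67 ± 0.47 (adjusted p = 2.3e-05). Neither gene's groups overlapped. Col5a3, a chain of more restricted use, rose by only 0.65 ± 0.23 (adjusted p = 0.016), and its call was lost without 72 h C (0.41) or without 12 h D (0.56). Its change was 0.99 at 48 h against 12 h D-F and -0.94 at 60 h against 48 h. Both of these were called and held without any single array.

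All 5 of these chains rose between 36 h and 48 h. Col3a1 averaged 9.26 ± 0.42 at 12 h D-F, 9.70 ± 0.57 at 24 h D-F, 10.76 ± 0.55 at 36 h, 13.05 ± 0.62 at 48 h, 12.71 ± 0.52 at 60 h and 13.30 ± 0.24 at 72 h (SD, n = 3). The step at 48 h against 36 h was 2.29 ± 0.31 for Col3a1, 2.00 ± 0.48 for Col1a1, 1.91 ± 0.47 for Col5a2, 1.28 ± 0.36 for Col1a2 and 1.25 ± 0.22 for Col5a1, all called, although Col1a2 lost its call without 36 h A (1.14) or 48 h C (0.91). The rise had begun before: at 36 h against 12 h D-F the change was 1.82 ± 0.36 for Col1a2, 1.48 ± 0.48 for Col1a1 and 0.76 ± 0.22 for Col5a1, all called, as was Col3a1 with the means above, and 1.03 ± 0.47 for Col5a2, not called. The Col1a1 call at 36 h was lost without 12 h E (1.14), 36 h B (1.36) or 36 h C (1.16). For Col1a2 the change by 36 h was thus larger than the step that followed, a comparison that was not tested. After 48 h none of these 5 genes was called at 60 h against 48 h or at 72 h against 60 h. At the last of these steps 1 member rose (Col13a1) and 1 fell (Col2a1), where 8.54% of all genes rose and 2.67% fell, and neither call held: Col13a1 was lost without 72 h C (0.31) and Col2a1 without any of 60 h A, 60 h B, 72 h B or 72 h C (-0.35 to -0.33). The spread was wide: for Col1a1 the level averaged 11.89 ± 0.95 at 48 h, 11.42 ± 0.82 at 60 h and 12.00 ± 0.70 at 72 h. In all, 19 members rose and 3 fell at 48 h against 36 h, where 7.59% of all genes rose and 14.5% fell. Of these 22 calls 13 held whichever array was left out, and the other 9, all of them rises, were each lost without 48 h C, with changes of 0.24 (Col14a1) to 0.93 (Col6a3) without it.

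Of the same chains only Col3a1 and Col1a2 were called in the first day, and only at 16 h. Col1a1, Col5a1 and Col5a2 were not called there, although all their 16 h arrays lay above all their 8 h arrays. The ranges at 16 h and 8 h were 8.49 to 9.02 and 7.53 to 7.96 for Col1a1, and 8.57 to 9.03 and 7.99 to 8.07 for Col5a2. Col3a1 read 9.83, 10.29 and 10.55 at 16 h against 8.79, 9.27 and 8.96 at 8 h, a rise of 1.22 ± 0.31 (adjusted p = 0.0025), with no overlap. Col1a2 was 0.92 higher at 16 h, but that call was lost without any of 4 arrays (8 h A, 8 h C, 16 h B or 16 h C; changes 0.74 to 0.95). At that time 6 members rose and 3 fell, beside 25.6% and 17.9% of all genes. At 24 h A-C against 8 h neither was called, at 0.50 ± 0.31 for Col3a1 and 0.46 ± 0.36 for Col1a2.

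**Figure D2:**
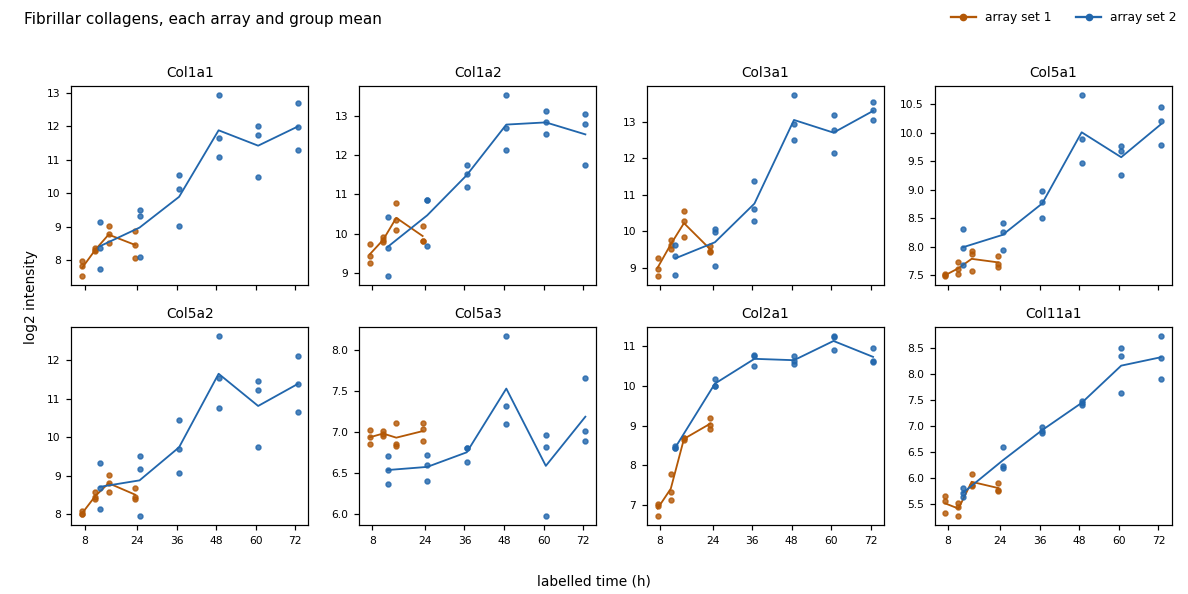
Log2 intensity (vertical axes, a scale for each panel) against labelled time in hours (horizontal axis) for 8 fibrillar collagens; points are arrays, lines join group means, orange is array set 1 and blue set 2, shifted sideways a little to keep 12 h and 24 h apart. Col1a1, Col1a2, Col3a1, Col5a1 and Col5a2 step up between 36 h and 48 h with wide scatter inside each time, whereas Col2a1 climbs from the first day with tight arrays and Col11a1 climbs through 60 h.

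The promoters of Col1a2 and Col3a1 are shown because these fibrillar genes rose together; the 250 bases before the RefSeq start (build GRCm38.p6, 5′ to 3′ on the gene's strand) lie at chr6:4505368-4505617 on the plus strand for Col1a2 and at chr1:45311288-45311537 on the plus strand for Col3a1. Capitals mark the CCAAT box (letters CCAAT), the TATA box (letters TATAAA), the GC box (letters GGGCGG) and the nuclear receptor site (letters AGGTCA), on either strand.
Col1a2: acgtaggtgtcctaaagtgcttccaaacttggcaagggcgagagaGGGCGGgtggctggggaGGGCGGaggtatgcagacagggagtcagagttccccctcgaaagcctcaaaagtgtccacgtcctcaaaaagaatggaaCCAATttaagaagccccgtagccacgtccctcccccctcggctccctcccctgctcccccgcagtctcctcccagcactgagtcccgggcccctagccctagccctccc
Col3a1: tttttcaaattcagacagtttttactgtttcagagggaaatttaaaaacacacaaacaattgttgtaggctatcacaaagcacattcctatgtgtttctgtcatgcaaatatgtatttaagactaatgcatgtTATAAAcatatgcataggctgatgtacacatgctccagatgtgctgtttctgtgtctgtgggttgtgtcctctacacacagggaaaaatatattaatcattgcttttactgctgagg
The Col1a2 window held CCAAT beginning 109 bases before the start and GGGCGG beginning 188 and 205 bases before it. The Col3a1 window held TATAAA beginning 117 bases before the start and none of the other motifs. RefSeq windows were matched for 33 of the 42 members, 36 windows in all. CCAAT was found in 13 of the 36 (36.1%) and in 33.8% of all 32851 windows, TATAAA in 5 (13.9%) and 12.4%, GGGCGG in 21 (58.3%) and 32.7%, and AGGTCA in 8 (22.2%) and 14.0%. No match in these runs overlapped another in the printed windows.

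The cartilage-type fibrillar genes followed another course. Col2a1, the single chain of type II collagen and a gene of cartilage that is also known in early embryonic epithelia, had already moved in the first day. It read 8.92, 9.20 and 9.03 at 24 h A-C against 6.99, 6.73 and 7.03 at 8 h, a rise of 2.13 ± 0.13 (adjusted p = 5.9e-12) with no overlap. Over set 1 it averaged 6.92 ± 0.17 at 8 h, 7.42 ± 0.33 at 12 h A-C, 8.67 ± 0.03 at 16 h and 9.05 ± 0.14 at 24 h A-C (SD, n = 3). The 0.50 rise at 12 h A-C was lost without 8 h B (0.40) or 12 h C (0.31), and that at 16 h, 1.75 ± 0.13, was not. In set 2 it averaged 8.46 ± 0.03 at 12 h D-F, 10.06 ± 0.11 at 24 h D-F, 10.68 ± 0.15 at 36 h, 10.65 ± 0.10 at 48 h, 11.13 ± 0.20 at 60 h and 10.73 ± 0.19 at 72 h. The step of 0.48 ± 0.13 at 60 h against 48 h was called and held without any single array, while 72 h against 36 h was 0.05 (95% interval -0.22 to 0.32).

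Col11a1, which forms mixed fibres with type II collagen, rose later and without a step. It averaged 5.71 ± 0.08 at 12 h D-F, 6.33 ± 0.22 at 24 h D-F, 6.92 ± 0.06 at 36 h, 7.44 ± 0.03 at 48 h, 8.16 ± 0.46 at 60 h and 8.32 ± 0.41 at 72 h. The 72 h arrays read 8.73, 8.31 and 7.91 and the 12 h D-F arrays 5.80, 5.64 and 5.70, apart by 2.60 ± 0.17 (adjusted p = 2.7e-12), and a second probe set of the gene, under 4.73 at 12 h D-F, rose by at least 3.29. Its partner Col11a2 was not called at 72 h. Col27a1, a fibrillar collagen of cartilage, rose by 0.25 ± 0.09, a call lost without 12 h F (0.22) or 72 h A (0.18). Col24a1 was called higher but lay under 4.73 in both groups, so no fold is given.

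The 2 main chains of type IV collagen rose steadily. Col4a1 and Col4a2, whose products form the trimer found in nearly all basement membranes, are transcribed away from each other, and their RefSeq starts overlap by 22 bases (chromosome 8, minus strand start 11312826 for Col4a1 and plus strand start 11312805 for Col4a2, GRCm38.p6). Col4a1 read 13.19, 13.34 and 13.69 at 72 h against 10.71, 10.54 and 11.04 at 12 h D-F, a rise of 2.64 ± 0.16 (adjusted p = 8.8e-13). Col4a2 read 11.97, 11.99 and 12.53 at 72 h against 9.31, 9.11 and 9.76 at 12 h D-F, a rise of 2.77 ± 0.19 (adjusted p = 6.2e-12). Both genes' groups were more than 2 log2 units apart at their nearest arrays.

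From 24 h D-F on, both genes rose at each step up to 60 h. Col4a1 averaged 10.76 ± 0.25 at 12 h D-F, 11.09 ± 0.16 at 24 h D-F, 11.79 ± 0.25 at 36 h, 12.54 ± 0.43 at 48 h, 13.41 ± 0.14 at 60 h and 13.41 ± 0.25 at 72 h. The step at 36 h against 24 h D-F was 0.70 for Col4a1 and 0.72 for Col4a2, and the second call was lost without 24 h D (0.60), 36 h B (0.61) or 36 h C (0.65). At that step 7 members rose and 2 fell, beside 8.84% and 4.79% of all genes, and 3 of these 9 calls held whichever array was left out. The step at 60 h against 48 h was 0.86 ± 0.16 for Col4a1 and 0.82 ± 0.19 for Col4a2, both called and both held without any single array. Here 6 members rose and 3 fell, beside 9.37% and 13.8% of all genes, and Col1a1, Col1a2, Col3a1, Col5a1 and Col5a2 were not among them. In the first day neither type IV gene was called, at 0.14 ± 0.16 for Col4a1 and 0.29 ± 0.19 for Col4a2 at 24 h A-C against 8 h.

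Col4a5 and Col4a6 encode the chains of a further type IV trimer, found in particular basement membranes, and are also transcribed away from each other, from RefSeq starts 1343 bases apart on chromosome X. They did not move alike. Col4a5 read 8.30, 7.74 and 8.92 at 72 h against 6.07, 5.99 and 6.33 at 12 h D-F, a rise of 2.19 ± 0.30 (adjusted p = 8.8e-07) with no overlap. Col4a6 read 5.79, 5.62 and 5.62 at 72 h against 5.36, 5.01 and 5.39 at 12 h D-F, a rise of 0.42 ± 0.10 (adjusted p = 0.00071) with no overlap. The difference between the changes of the pair was not tested, since levels of different probe sets were not set against each other. Col4a6 was also called lower at 24 h A-C against 8 h (-0.25), a call lost without any of 8 h A, 8 h B, 24 h A or 24 h C (changes -0.27 to -0.18). The pair's promoters, at chrX:141475169-141475418 on the plus strand for Col4a5 and chrX:141474077-141474326 on the minus strand for Col4a6, are shown with the same marking.
Col4a5: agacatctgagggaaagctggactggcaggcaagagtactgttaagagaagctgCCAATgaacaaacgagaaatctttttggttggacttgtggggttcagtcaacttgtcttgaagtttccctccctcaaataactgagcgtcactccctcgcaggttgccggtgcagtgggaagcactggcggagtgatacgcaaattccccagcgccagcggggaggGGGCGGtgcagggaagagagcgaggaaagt
Col4a6: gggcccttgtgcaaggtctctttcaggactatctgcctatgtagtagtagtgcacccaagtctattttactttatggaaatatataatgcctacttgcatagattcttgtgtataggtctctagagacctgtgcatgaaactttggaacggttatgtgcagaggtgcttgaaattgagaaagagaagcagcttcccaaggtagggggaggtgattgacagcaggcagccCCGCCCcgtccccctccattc
The Col4a5 window held CCAAT beginning 196 bases before the start and GGGCGG beginning 30 bases before it. The Col4a6 window held 1 match, GGGCGG read on the opposite strand, whose first printed base is 21 bases before the start. Col4a3 and Col4a4, chains of the type IV trimer of the kidney filter, were not called in any of the 3 main comparisons; Col4a4 averaged under 4.73 in the groups compared.

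The type VIII chains, which form hexagonal lattices in the eye and in vessel walls, parted. Col8a1 read 9.97, 9.05 and 10.56 at 72 h against 7.70, 7.09 and 8.00 at 12 h D-F, a rise of 2.26 ± 0.43 (adjusted p = 7.2e-05), most of it in the step at 48 h against 36 h (2.06 ± 0.43). Col8a2 instead rose and came down again. It averaged 5.41 ± 0.17 at 12 h D-F, 6.76 ± 0.07 at 24 h D-F, 6.82 ± 0.39 at 36 h, 5.83 ± 0.13 at 48 h, 5.76 ± 0.11 at 60 h and 5.76 ± 0.30 at 72 h. The rise at 24 h D-F against 12 h D-F was 1.35 ± 0.16 (adjusted p = 8.1e-07) and the change at 48 h against 36 h was -0.99 ± 0.16 (adjusted p = 9.0e-05), both without overlap of the arrays. In set 1 Col8a2 read 5.45, 5.85 and 5.69 at 24 h A-C against 4.64, 4.63 and 4.41 at 8 h, and since the 8 h mean lay under 4.73 the rise was at least 0.93. Col10a1, the network collagen of hypertrophic cartilage, was called once, at -0.23 ± 0.09 at 24 h A-C against 8 h, and that call was lost without any of 8 h A, 8 h B, 24 h B or 24 h C (-0.22 to -0.20).

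The 3 classical chains of type VI collagen, which form the microfibrils, scattered most widely between the arrays of a time at 48 h. Col6a3 was already wide in earlier groups of set 2, with an SD of 0.74 at 12 h D-F and 0.82 at 36 h. Col6a1 read 8.88, 7.90 and 9.18 at 72 h against 7.08, 6.91 and 7.57 at 12 h D-F, a rise of 1.46 ± 0.30 (adjusted p = 0.00019). Col6a2 read 8.73, 8.27 and 9.11 at 72 h against 7.98, 7.72 and 8.18 at 12 h D-F, a rise of 0.74 ± 0.20 (adjusted p = 0.0026). Neither pair of groups overlapped, but in both genes 72 h B lay only a little above 12 h F, the highest array of its group.

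Col6a3, the largest of the classical chains, varied most between arrays of a time. It read 8.48, 7.78 and 10.15 at 72 h against 7.44, 7.18 and 8.56 at 12 h D-F, so the groups overlapped and the difference of 1.08 ± 0.60 was not called (95% interval -0.16 to 2.31). At 48 h it read 9.44, 8.85 and 11.57, and its rise of 2.23 ± 0.60 at 48 h against 12 h D-F was called (adjusted p = 0.0030), but was 1.42 without 48 h C. Col6a1 and Col6a2 then fell at 60 h against 48 h, with changes of -0.96 ± 0.30 and -0.78 ± 0.20; the first call was lost without 48 h C (-0.54) or 60 h A (-0.71) and the other without 48 h C (-0.47). The newer type VI chain Col6a4 fell by 0.37 ± 0.12 at 72 h against 12 h D-F, a call lost without 72 h A (-0.28), and Col6a5 was called lower while under 4.73 in both groups.

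Among the other collagens Col12a1, a FACIT collagen that coats type I fibres, moved with the interstitial chains. It read 9.37, 9.18 and 9.66 at 72 h against 6.35, 5.74 and 6.60 at 12 h D-F, a rise of 3.18 ± 0.25 (adjusted p = 8.5e-11), and its step at 48 h against 36 h was 2.09 ± 0.25. Another Col12a1 probe set above 4.73 gave 1.10 in the fit of all probe sets. By the probe set of the highest mean, the other FACIT genes moved by less than 0.5. Of them Col9a2 rose by 0.46 ± 0.10, and Col16a1 rose by 0.48 ± 0.15, a call lost without 72 h C (0.31). Col9a3 rose by 0.20 and Col9a1 fell by 0.24 and Col19a1 by 0.20, calls that rested on single arrays: Col9a3 was lost without 12 h D, 12 h E, 72 h B or 72 h C (0.11 to 0.19), Col9a1 without 12 h E (-0.23) or 72 h A (-0.21), and Col19a1 without any of the 6 arrays (-0.21 to -0.18). Col14a1, Col20a1 and Col22a1 were not called in that comparison by the probe set of the highest mean. Col7a1, which forms the anchoring fibrils under epithelia, rose by 0.81 ± 0.27, a call lost without 12 h D (0.66) or 72 h C (0.56).

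The multiplexin Col18a1, a basement membrane collagen whose end fragment is endostatin, rose early with tight arrays. It read 11.46, 11.73 and 11.53 at 24 h A-C against 11.02, 11.05 and 11.02 at 8 h, a rise of 0.54 ± 0.09 (adjusted p = 5.3e-05) with no overlap. In set 2 it averaged 11.58 ± 0.03 at 12 h D-F, 12.26 ± 0.12 at 24 h D-F, 12.62 ± 0.05 at 36 h, 12.46 ± 0.06 at 48 h, 12.46 ± 0.28 at 60 h and 12.29 ± 0.11 at 72 h. It was thus 0.70 ± 0.09 higher at 72 h than at 12 h D-F (adjusted p = 5.0e-07) yet 0.34 lower at 72 h than at 36 h (-0.34 ± 0.09, adjusted p = 0.0064). Its relative Col15a1 was not called in any of the 3 main comparisons.

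Among the 4 transmembrane collagens Col13a1 and Col17a1 fell late. Col13a1, found at cell adhesion sites, read 8.79, 8.71 and 8.71 at 12 h A-C against 7.68, 7.88 and 7.78 at 8 h, a rise of 0.96 ± 0.09 (adjusted p = 1.6e-07) and one of 4 members that rose at that time, where 12.9% of all genes rose and none of the members but 6.67% of all genes fell. In set 2 it averaged 8.32 ± 0.09 at 12 h D-F, 8.43 ± 0.15 at 24 h D-F, 7.88 ± 0.15 at 36 h, 7.42 ± 0.11 at 48 h, 7.44 ± 0.05 at 60 h and 7.82 ± 0.14 at 72 h. The change at 72 h against 12 h D-F was -0.50 ± 0.09 (adjusted p = 2.0e-05).

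Col17a1, a component of hemidesmosomes, read 6.21, 6.20 and 6.31 at 16 h against 5.52, 5.71 and 5.75 at 8 h, a rise of 0.58 ± 0.10. At 48 h its 3 arrays read 4.46, 4.74 and 4.78 against 5.67, 5.66 and 5.50 at 36 h. The 48 h mean lay under 4.73, so it fell by at least 0.88, and at 60 h the mean was back to 5.34 ± 0.07. Its call at 24 h A-C against 8 h (0.25) was lost without any of 8 h A, 8 h B, 24 h B or 24 h C (0.18 to 0.27). Col23a1 and Col25a1, the other membrane collagens, were not called by the probe set of the highest mean.

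Col26a1, first described in testis and ovary, read 6.98, 6.44 and 6.86 at 72 h against 5.58, 5.32 and 5.43 at 12 h D-F, a rise of 1.32 ± 0.14 (adjusted p = 1.2e-08). Most of it came at 60 h against 48 h, by 1.03 ± 0.14. This probe set is of a type that the array's design marks as able to match several transcripts. The chosen probe sets of Col1a2, Col2a1, Col3a1, Col6a2, Col9a1, Col16a1 and Col17a1 are of the same type. The other probe set of Col26a1, under 4.73 at both times, gave -0.18 at 72 h against 12 h D-F.

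**Figure D3:**
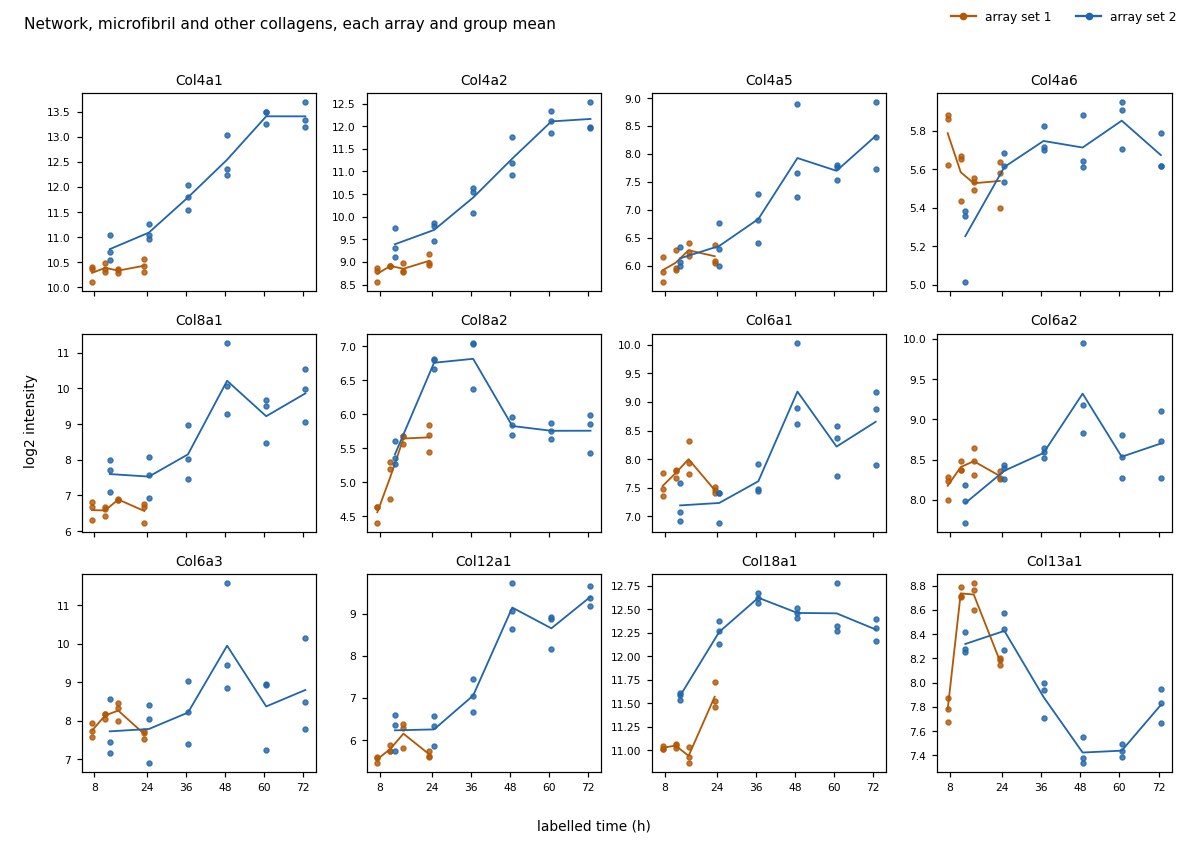
Log2 intensity (vertical axes, a scale for each panel) against labelled time in hours (horizontal axis) for 12 network, microfibril and other collagens; points are arrays, lines join group means, orange is array set 1 and blue set 2, shifted sideways a little. Col4a1 and Col4a2 climb to 60 h, with their arrays widest apart at 48 h. Col8a2 peaks at 24 h and 36 h, Col13a1 falls after 24 h, and Col8a1, Col6a1, Col6a2 and Col6a3 spread widely at 48 h.

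At the last stretch, 72 h against 36 h, 15 members rose and 3 fell, where 15.5% of all genes rose and 20.2% fell. The rises were again led by Col3a1 (2.54 ± 0.31), Col12a1 (2.35 ± 0.25) and Col1a1 (2.11 ± 0.48), and the 3 that fell were Col8a2 (-1.06 ± 0.16), Col17a1 (-0.48 ± 0.10) and Col18a1. 4 of these 18 calls depended on single arrays. Col6a1 was lost without 72 h C (0.78) and Col5a2 without 36 h A (1.31) or 72 h C (1.28). Col1a2 was lost without any of 36 h A, 36 h B, 72 h A or 72 h C (0.77 to 1.05), and Col9a2 without any of 36 h B, 36 h C, 72 h B or 72 h C (0.18 to 0.28).

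Within a time, many collagens ran parallel to a list of 27 fibroblast genes that holds no collagen, 26 of them measured. The list's mean read 10.71, 10.11 and 10.89 on the 72 h arrays and 8.83, 8.45 and 9.01 on the 12 h D-F arrays. Between these groups 21 of its 26 genes rose and none fell at an adjusted p under 0.05, with a median change of 1.85. Of all genes 26.2% rose and 34.5% fell in that comparison, with a median change of -0.09. The 48 h arrays read 10.62, 10.16 and 11.07 and the 60 h arrays 9.56, 10.27 and 10.38, and at 8 h the list ran between 7.95 and 8.16. None of the 26 genes averaged under 4.73 in any group. Feeder cells are one source of such RNA and the treated cells another, and these arrays do not separate them.

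The slope of each gene on the list's mean, estimated inside the 10 groups so that time takes no part, was positive and called for 14 of the 42 members and negative for none, where 3.14% of all genes were called positive and 1.28% negative. By class these were 6 of 11 fibrillar, 2 of 9 network, 3 of 5 microfibril and 3 of 17 other collagens. The slope was 2.47 ± 0.21 for Col6a3, 2.02 ± 0.10 for Col5a2 and 1.99 ± 0.16 for Col1a1, in log2 units of the gene for 1 log2 unit of the list. It was -0.06 ± 0.12 for Col2a1, -0.14 ± 0.16 for Col11a1, 0.37 ± 0.13 for Col4a1 and 0.47 ± 0.15 for Col4a2, none of them called.

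**Figure D4:**
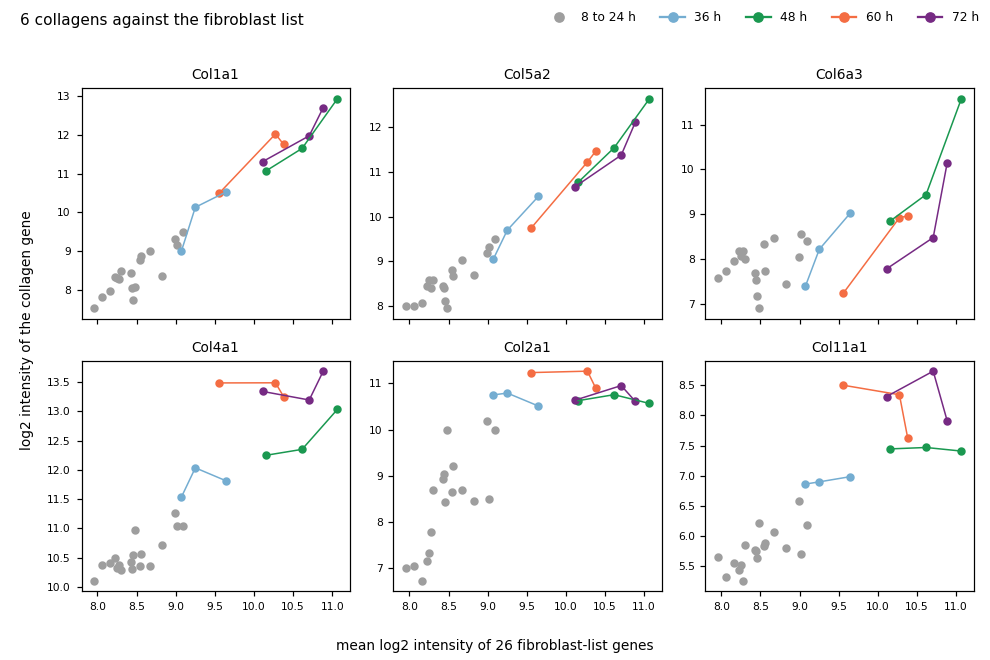
Log2 intensity of 6 collagens (vertical axes) against the mean log2 intensity of the 26 measured fibroblast-list genes (horizontal axis), 1 point for each of the 30 arrays; arrays of 36, 48, 60 and 72 h are coloured by time and joined within a time, earlier arrays are grey. Inside a time Col1a1, Col5a2 and Col6a3 climb with the list, and Col2a1 and Col11a1 do not.

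With the list's mean as a covariate, an alternative added after the data were seen, 11 members were higher and 7 lower at 72 h against 12 h D-F, beside 17.9% and 17.9% of all genes. Higher with and without it were Col2a1 (2.39), Col11a1 (2.85), Col4a1 (1.97), Col4a2 (1.92), Col3a1 (1.77), Col26a1 (1.47), Col12a1 (1.26), Col18a1 (1.04), Col9a2 (0.57) and Col5a1 (0.55), and Col24a1, which lay under 4.73. Col1a1 (0.00), Col1a2 (0.24) and Col4a5 (0.22) were no longer called, and Col5a2 (-0.96), Col8a1 (-0.93), Col7a1 (-0.90) and Col6a1 (-0.76) turned to lower. Col6a3, not called without the covariate, was lower with it (-3.37). The list's mean differed by 1.80 between the groups while its widest range inside a group was 0.91, so these values reach beyond the range on which the slope was measured. What part the fibroblast genes have in the collagen changes was not tested.

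**Figure D5:**
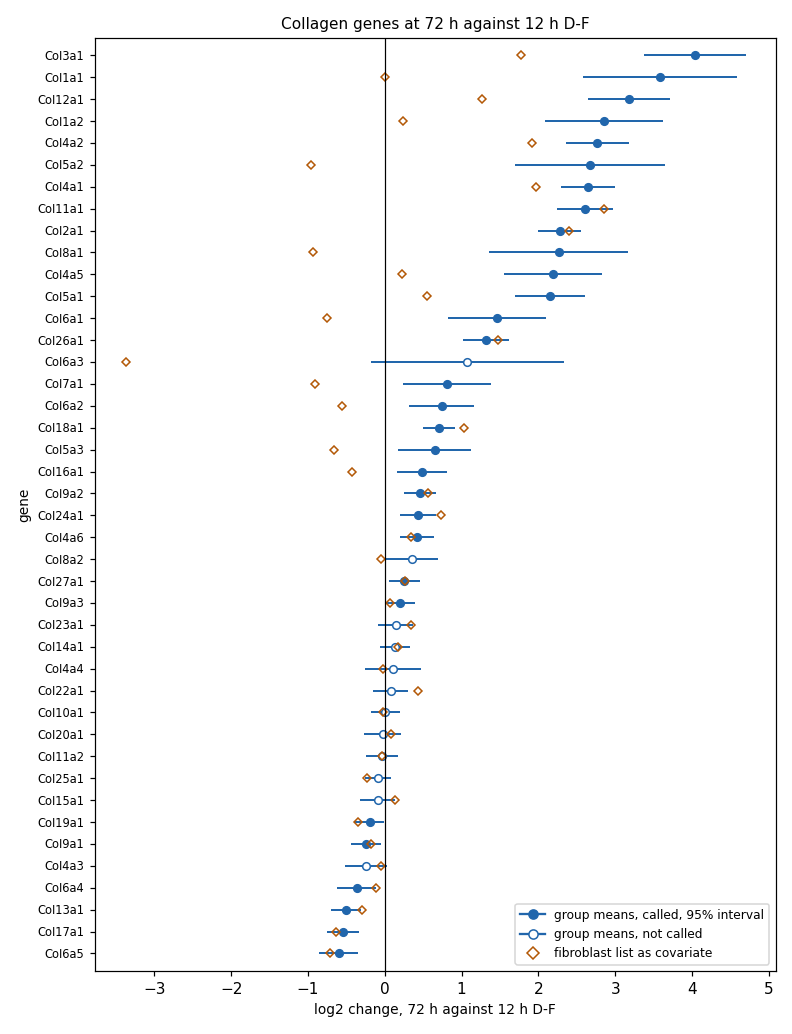
Log2 change at 72 h against 12 h D-F (horizontal axis) of the 42 collagens (rows, ordered by the change); blue circles with bars are group means with their 95% intervals, filled where called by limma, and orange diamonds are the same change with the fibroblast list's mean as a covariate. The 2 marks lie close together for Col2a1, Col11a1 and Col26a1 and far apart for Col1a1, Col5a2, Col8a1 and Col6a3.

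Parietal endoderm markers moved as well. All 15 genes of that list rose at 72 h against 12 h D-F, among them Plat (3.81 ± 0.11), Fst (3.66 ± 0.22), Lama1 (3.02 ± 0.12), a laminin chain, and Sox17 (2.89 ± 0.13). The list's mean was 8.62 at 12 h D-F, 8.87 at 24 h D-F, 9.44 at 36 h, 9.99 at 48 h, 10.44 at 60 h and 10.55 at 72 h, and its arrays ran between 10.40 and 10.77 at 72 h and between 8.56 and 8.70 at 12 h D-F. Of the 8 basement membrane partners of type IV collagen, laminin chains, nidogens, perlecan and agrin, 7 rose and none fell, led by Lama1, Lamb1 (1.61 ± 0.10) and Nid1 (1.18 ± 0.30); Lama1, Lamb1, Lamc1 and Nid1 stand in both lists. Of the visceral endoderm list 2 of 10 genes rose and 2 fell, and of the neural list 4 of 6 rose, where 26.2% of all genes rose and 34.5% fell; the visceral count was not above those shares. Their part in the collagen changes was not tested.

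Of 32 measured genes for collagen folding, secretion, trimming and cross-linking 27 rose and 3 fell at 72 h against 12 h D-F, where 26.2% of all genes rose and 34.5% fell, with a median change of 0.61. Serpinh1, the collagen chaperone, averaged 12.99 at 72 h against 10.98 at 12 h D-F, 2.01 ± 0.11 higher, and the prolyl 3-hydroxylase P3h2 was 2.33 ± 0.12 higher. The cross-linking oxidase Lox rose by 2.14 ± 0.40 and the procollagen protease Bmp1 by 2.02 ± 0.11. In the first day 16 of the 32 rose and 4 fell, beside 23.5% and 15.8% of all genes, with Serpinh1 1.01 ± 0.11 higher at 24 h A-C than at 8 h and Pcolce, an enhancer of procollagen trimming, lower, at 9.03 at 24 h A-C against 10.03 at 8 h (adjusted p = 0.00092).

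Against the same 26.2% and 34.5%, of 11 genes for collagen breakdown and its inhibitors 8 rose and 1 fell at 72 h against 12 h D-F, led by the fibroblast protease Fap (2.76 ± 0.29), the gelatinase Mmp2 (2.75 ± 0.14) and the inhibitors Timp3 (2.42 ± 0.20) and Timp2 (1.79 ± 0.27). Of 9 collagen receptors 3 rose and 3 fell, close to the shares of all genes. The endocytic receptor Mrc2 rose by 1.41 ± 0.15, the receptor kinase Ddr1 by 0.94 ± 0.07 and the integrin subunit Itgb1 by 0.90 ± 0.09, and the platelet receptor Gp6 changed by -0.28 ± 0.10.

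At matched labelled times the D-F arrays differed from the A-C arrays, which measures array set and culture together, since these cannot be told apart. At 12 h, 6 members were higher and 5 lower in D-F, beside 17.2% and 21.7% of all genes, and at 24 h 8 were higher and 1 lower, beside 13.3% and 20.4%. Col2a1 was 1.04 ± 0.13 higher in D-F at 12 h and 1.01 ± 0.13 higher at 24 h, Col18a1 was 0.53 and 0.69 higher, and Col9a2 was 0.74 and 0.44 lower (-0.74 and -0.44). Col4a1 and Col4a2 were 0.66 and 0.68 higher in D-F at 24 h. The change between 12 h and 24 h itself differed between the D-F and A-C arrays for 4 members, where it did for 19.1% of all genes.

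Of the 42 members 27 have further probe sets, 40 in all, which were tested in a fit of all 34945 single-symbol probe sets, where 23.3% rose and 30.2% fell at 72 h against 12 h D-F. With both taken from that fit, 25 of the 40 had the same call as the gene's probe set of the highest mean, 7 were called where that one was not, and 8 were not called where it was. Of the 8, 5 lay under 4.73 at both times. The second probe sets of Col1a1, Col3a1, Col4a1 and Col4a5 gave 3.37, 4.64, 2.88 and 2.97. For Col12a1, at 3.18 by the chosen probe set, the others gave 1.10 and, under 4.73 at both times, 0.05 and -0.08. For Col8a1 the others gave 1.98 and, under 4.73 at both times, 0.05. For Col25a1 and Col14a1 the choice of probe set decided the call. A further Col25a1 probe set read 6.81, 6.04 and 6.76 at 72 h and averaged 4.40 at 12 h D-F, at least 1.81 higher, and a further Col14a1 probe set read 6.04, 6.51 and 6.21 at 72 h and averaged 4.60 at 12 h D-F, at least 1.53 higher.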

How the data were processed

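The 30 arrays carried biotin-labelled RNA and gave 45101 probe sets. The log2 intensities were normalised and deposited by the authors, who used limma 3.8.3 per the submitters' processing notes. The background correction, probe summary and normalisation method are not given in the sources used here, and the values were used as deposited. A step that equalises arrays can hide a shift common to most genes, which is why centring and a further quantile normalisation were tried.

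Leaving out 64 control probe sets, 34945 probe sets carried exactly 1 symbol in the platform annotation, with older symbols of the named lists updated, and gave 18193 genes, each represented by its probe set with the highest mean over the 30 arrays. Groups and array letters came from the labels. 1 model with 10 group means was fitted in limma 3.58.1 (R 4.3.3), with a moderated two-sided test per contrast, a moderated F test over the times of each array set, and Benjamini-Hochberg adjustment over all 18193 genes. A call is an adjusted p under 0.05. The code was tested on simulated data. No 2 arrays of a group held identical values, and no column of values without a label was used (0 columns).

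The lists are the 4 pathway lists (collagen processing, receptors, degradation and basement membrane partners) and the markers of embryonic fibroblast, parietal endoderm, visceral endoderm, neural and pluripotent stem cells. Every member could be named, and from each list up to 4 of the called genes with the largest changes. The members and lists were chosen with earlier results of these data known. Promoter windows are from RefSeq on build GRCm38.p6.

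The array letters A to C recur across groups, but arrays of the same letter did not deviate together throughout, so the letters were not taken to pair the arrays. Alternatives were a further quantile normalisation, centring, a filter on dim genes, other rules for the probe set, an intensity trend, array weights, smaller fits, blocks for the letter or the array set, each array left out in turn and, added after the data were seen, the fibroblast list's mean as a covariate.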

Additional observations from a re-analysis of the deposited data

Results flagged for a closer look

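The change between 12 h and 24 h differed between the D-F and the A-C arrays for 4 of the 42 collagens. The test was limma's test of the difference, adjusted over all genes, and it called 19.1% of all genes. The collagens' share was thus not above that of all genes. For Col13a1 the change was 0.11 in D-F and -0.56 in A-C, a difference of 0.66 ± 0.12 (adjusted p = 0.00042). For Col8a2 it was 1.35 in D-F and 0.58 in A-C, a difference of 0.77 ± 0.23 (adjusted p = 0.019). For Col4a6 it was 0.36 in D-F and -0.05 in A-C, a difference of 0.40 ± 0.14 (adjusted p = 0.043). For Col6a5, under 4.73 on every array, it was -0.37 in D-F and 0.19 in A-C, a difference of -0.57 ± 0.16 (adjusted p = 0.015). Array set and culture cannot be told apart here.

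Further probe sets of 6 genes were called at 72 h against 12 h D-F where the probe set of the highest mean was not, both taken from the fit of all probe sets. The differences were 1.65 for Col14a1 and 2.14 for Col25a1, whose 12 h D-F means lay under 4.73, so that only at least 1.53 and at least 1.81 are measured, and 0.42 and 0.62 for 2 probe sets of Col22a1. They were 0.38 for Col23a1, -0.38 for Col20a1 and 0.55 for Col19a1, whose brightest probe set was called lower in the fit of genes only, and for these 3 probe sets both means lay under 4.73. The cause of these disagreements was not tested.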

How the results depend on the processing

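The number of arrays limits the precision, and the fits share 1 estimate of the spread. Of the collagens called in the 3 main comparisons, most kept their direction and their call in most settings. Of the recomputed values 93 kept the direction but not the call, 16 turned round and 14 counts moved by over 1.5 times. A further 895 were labelled the same, and these hold counts that moved less as well as collagens that kept direction and call. The count at 24 h A-C against 8 h was 8, and became 13 after a further quantile normalisation, 16 after centring, 4 without genes below the 30th percentile of mean level, 5 without probe set types that can match several transcripts, 5 with an intensity trend, 17 with only the arrays compared, and 4 to 9 without 1 array. The count at 72 h against 12 h D-F was 30, and 18 with the fibroblast covariate, which was added after the data were seen, and 25 to 30 without 1 array. That at 72 h against 36 h was 18, and 15 to 20 without 1 array. By the F test, set 1 had 9 members, and 18 after centring, 5 without types that can match several transcripts, 14 with array weights, 15 with the fibroblast covariate and 5 to 11 without 1 array. Set 2 had 32, and 30 to 33 without 1 array. Apart from the fibroblast covariate at 72 h against 12 h D-F, the shares of all genes under these settings are not given here. The counts show how the calls depend on processing and are not read as results about the collagens.

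Signs turned with the fibroblast covariate for Col1a1 (-0.00022), Col16a1 (-0.43), Col5a2 (-0.96), Col5a3 (-0.66), Col6a1 (-0.76), Col6a2 (-0.55), Col7a1 (-0.90) and Col8a1 (-0.93) at 72 h against 12 h D-F, and for Col1a1 (-0.37), Col1a2 (-0.77), Col5a2 (-0.86), Col6a1 (-0.49) and Col8a1 (-0.49) at 72 h against 36 h. Col19a1 was 0.11 as the mean of its probe sets, and Col26a1 was -0.18 at 72 h against 12 h D-F and -0.085 at 72 h against 36 h without types that can match several transcripts, where its dimmer probe set takes over. The cause of the other turns was not tested.

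With the letter as a replicate block, 7 members were called at 24 h A-C against 8 h and 18 at 72 h against 36 h. The arrays share only a letter: same-letter correlations of deviations were -0.04, 0.00 and -0.04 in the first comparison and 0.18, 0.09 and 0.28 in the second. No paired analysis was possible for 72 h against 12 h D-F because those groups share no letters. With 8 time groups and the array set as a block, the counts were 7 at 24 h against 8 h and 30 at 72 h against 12 h.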
